A study of Mus musculus with 8 samples.

Results

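The genes described here encode the common building blocks of the basement membrane: the type IV collagen chains Col4a1 and Col4a2, the laminin chains Lama1, Lama5, Lamb1 and Lamc1, the nidogens Nid1 and Nid2, the proteoglycan perlecan (Hspg2) and the matricellular protein Sparc. A probe set was taken where the array annotation gave it exactly 1 of these symbols. All 10 genes were found, through 22 of the 45037 probe sets tested, among 18193 genes with a probe set of their own. Col4a2, Lama1 and Nid2 were each read by a single probe set. For the other genes, the probe set with the highest mean stood for the gene, and the remaining ones are given beside it.

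The study used NG4, a mouse embryonic stem cell line, reverse transfected with a small interfering RNA (siRNA) and read on Affymetrix arrays after 48 h. There were 4 groups of 2 arrays: siNonTarget, the control with a non-targeting siRNA, and siSox2, siPsmd14 and siDdb1, each named for its target. Sox2 helps to keep stem cells pluripotent, Psmd14 removes ubiquitin from proteins that the proteasome takes up, and Ddb1 joins substrates to CUL4 ligases. The labels do not say whether replicate arrays were separate cultures, and each p-value rests on the difference between such arrays alone, which may be technical.

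The basement membrane is a thin sheet of matrix that underlies epithelia. Laminins, trimers of an alpha, a beta and a gamma chain, form a first polymer on the cell surface, and collagen IV, a trimer built mostly of Col4a1 and Col4a2 chains, forms a second, cross-linked network. Nidogens and perlecan link the networks, and Sparc binds collagen. In the early mouse embryo the epiblast and the primitive endoderm share a basement membrane that is rich in the laminin made of the Lama1, Lamb1 and Lamc1 chains, and parietal endoderm and trophoblast secrete a thick membrane rich in collagen IV.

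Col4a1 and Col4a2 are neighbours on opposite strands that overlap at their starts and run away from each other beyond. The RefSeq promoter windows of build GRCm38.p6 cover 250 bases before and 50 bases after an annotated start. The Col4a1 start (11312826, minus strand) and the Col4a2 start (11312805, plus strand) lie 21 bases apart. Each start thus lies within the bases transcribed from the other, and the windows overlap by 78 bases. Both windows are shown because this pair held the only members of the set that rose in more than 1 knockdown. Capitals mark the 78 bases that both windows hold, read on opposite strands. These span the 50 bases after each of the starts and no stretch that lies before both.
Col4a1, chr8:11312777-11313076, minus strand: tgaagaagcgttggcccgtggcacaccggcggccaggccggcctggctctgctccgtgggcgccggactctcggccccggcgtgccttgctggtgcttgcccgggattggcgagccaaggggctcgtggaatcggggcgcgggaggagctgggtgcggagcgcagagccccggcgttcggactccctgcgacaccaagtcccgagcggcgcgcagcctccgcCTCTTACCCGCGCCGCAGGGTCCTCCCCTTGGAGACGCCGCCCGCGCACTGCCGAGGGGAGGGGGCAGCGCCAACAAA
Col4a2, chr8:11312555-11312854, plus strand: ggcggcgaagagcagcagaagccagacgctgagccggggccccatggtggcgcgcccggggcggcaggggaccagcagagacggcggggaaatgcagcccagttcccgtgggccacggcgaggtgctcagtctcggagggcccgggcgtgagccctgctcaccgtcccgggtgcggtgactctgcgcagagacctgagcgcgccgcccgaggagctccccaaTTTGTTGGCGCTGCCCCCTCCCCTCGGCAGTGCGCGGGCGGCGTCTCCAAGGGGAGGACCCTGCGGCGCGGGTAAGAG

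Windows were found for 7 of the 10 genes, and 10.8% of all 32851 windows overlapped a window on the other strand. The GC box core GGGCGG, searched on both strands as were all motifs, stood in the windows of Lama5, Hspg2, Col4a1, Col4a2, Lamb1 and Nid1, against 35.7% of all windows. Col4a1 held it 1 time, Col4a2 3 times and Hspg2 5 times. The Col4a1 match lies in the 78 bases shared with Col4a2, so the same site is counted in both windows. The CCAAT box core CCAAT stood in 4 windows, those of Col4a1, Col4a2, Lamb1 and Nid1, against 37.4% of all windows. The TATA box TATAAA (13.6% of all windows), the SOX core CATTGT (12.6%) and the AP-1 site TGANTCA (7.8%) stood in 0 of the 7 windows. These matches describe letters in a window and not bound sites.

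The targeted transcripts were read first. Sox2 signal was 83.9% and 70.0% of the control mean on the siSox2 arrays, Psmd14 signal was 90.6% and 82.8% on the siPsmd14 arrays, and Ddb1 signal was 22.1% and 46.1% on the siDdb1 arrays. Each lay on the side its label implies, and none passed the threshold against siNonTarget. The Sox2 signal of siPsmd14 replicate 1 was 82.6% of the control mean, below that of siSox2 replicate 1. Array medians lay between 27.4 and 28.8 intensity units. All 10 embryonic stem cell markers, among them Pou5f1 and Nanog, lay above the array medians in every group. With 2 arrays per group the precision is limited, and over all probe sets the median standard error (SE) of a log2 fold change was 0.151.

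The collagen IV genes rose after the Sox2 and the Psmd14 siRNA. Lama1 fell and Sparc rose with siSox2, and no member passed with siDdb1. All values that follow are log2 intensities, and a change is a difference between group means on that scale. Tests are from 1 limma model of the 8 arrays, with p adjusted by Benjamini-Hochberg over the 45037 probe sets and a threshold of 0.05. In siSox2, 3 of the 10 genes rose, where 2.81% of all genes did, and 1 fell, where 1.46% did. In siPsmd14, 2 of 10 rose, where 1.7% of all genes did, and 0 fell, where 0.187% did. In siDdb1, 0 of 10 passed limma's test, where 0.044% of all genes were higher and 0% lower, and 2 (Lama1 and Nid1) had an unadjusted p under 0.05, where 9.86% of all genes did. The limma F test for any difference among the 4 groups passed for 4 of 10 (Col4a1, Col4a2, Lama1 and Nid1), where 5.77% of all genes did. Nid1 lay close to the threshold there (limma F test adjusted p = 0.0447). The 3 comparisons share the control arrays. Where both arrays of a group are said to lie above or below those of another, this orders only 2 values against 2. Such an order arises easily without a change, and its share over all genes is not given here. In such bulk samples a change in the number of cells that make a transcript and a change in the amount per cell cannot be told apart.

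**Figure D1:**
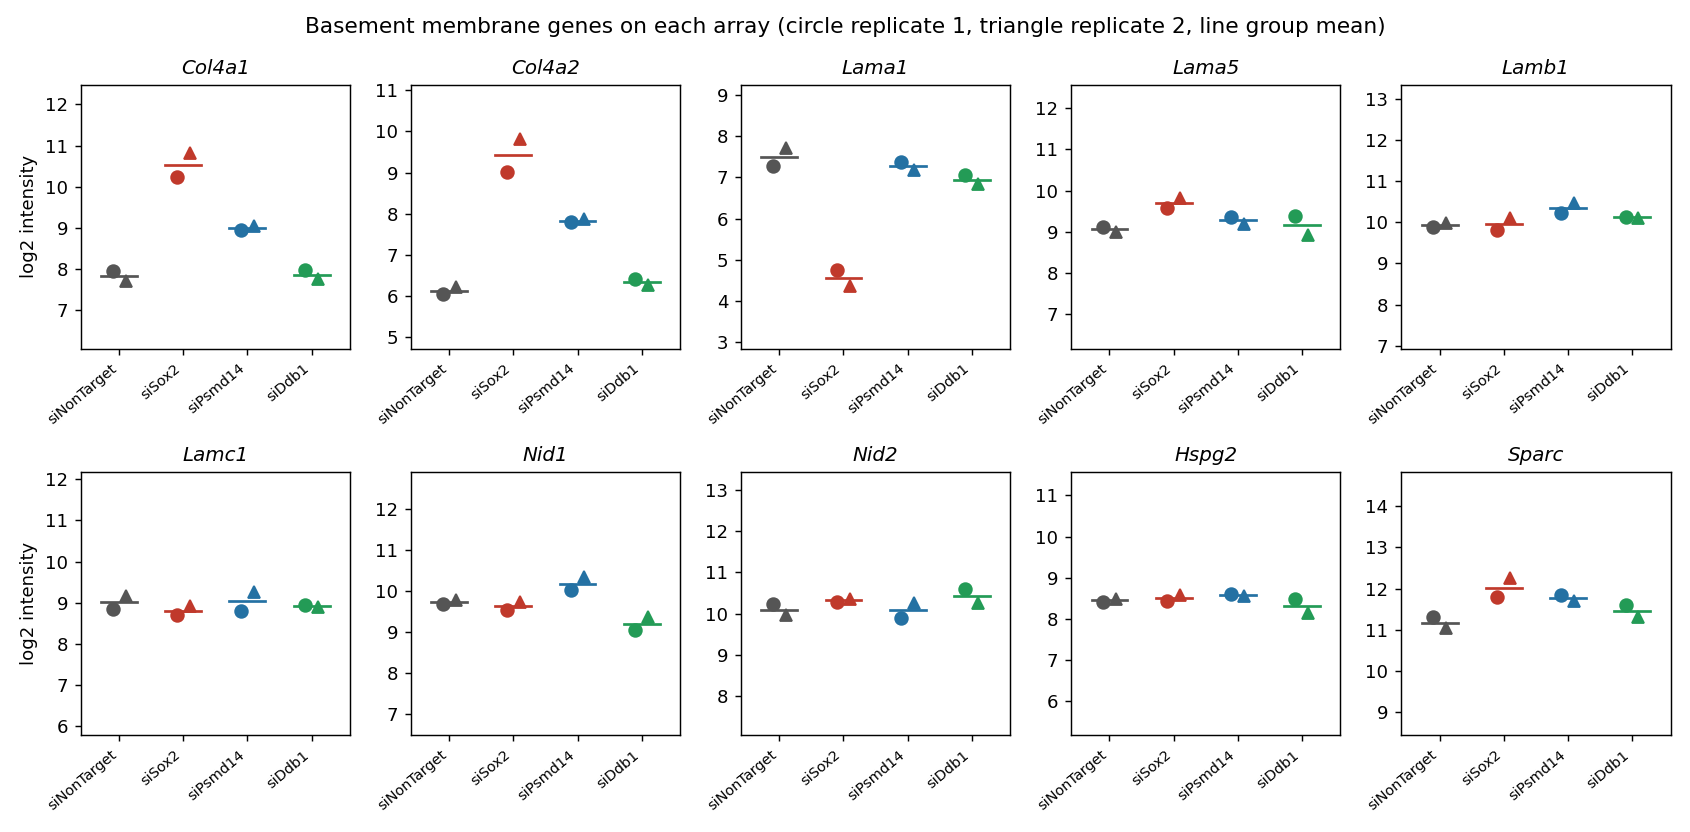
Log2 intensity of the representative probe set of each gene on each of the 8 arrays (circles replicate 1, triangles replicate 2, lines group means), with the same height of scale in every panel. Col4a1 and Col4a2 stand highest in siSox2 and next in siPsmd14, Lama1 stands low on both siSox2 arrays, and Lamb1, Lamc1 and Hspg2 stay within narrow ranges.

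Col4a1 encodes the alpha1 chain, of which the common collagen IV trimer holds a pair. Its log2 value was 7.96 and 7.72 in siNonTarget, 10.24 and 10.83 in siSox2, 8.95 and 9.04 in siPsmd14, and with siDdb1 7.99 and 7.75. Both siSox2 arrays lay above all other arrays, both siPsmd14 arrays lay above the control arrays, and the siDdb1 arrays overlapped the controls. The rise in siSox2 was 2.70 (SE 0.20, 6.49-fold, n = 2 arrays per group, limma adjusted p = 0.000395). In siPsmd14 it was 1.16 (SE 0.20, 2.24-fold, limma adjusted p = 0.0307). The difference in siDdb1 was 0.03, with a 95% interval of -0.41 to 0.48. A further probe set of Col4a1 passed in both knockdowns, with rises of 2.78 and 1.26.

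Col4a2 encodes the alpha2 chain that completes the trimer. Its log2 value was 6.04 and 6.22 in siNonTarget, 9.02 and 9.82 in siSox2, 7.79 and 7.87 in siPsmd14, and with siDdb1 6.43 and 6.28. The order of the groups was that of Col4a1, and the siSox2 and siPsmd14 arrays overlapped neither each other nor the controls. The rise in siSox2 was 3.28 (SE 0.23, 9.74-fold, limma adjusted p = 0.000332). In siPsmd14 it was 1.70 (SE 0.23, 3.24-fold, limma adjusted p = 0.0129). In siDdb1 the difference was 0.22, with a 95% interval of -0.29 to 0.73, and both arrays lay above both controls.

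The siSox2 calls of Col4a1, Col4a2 and Lama1 held under all 16 alternatives run. The siPsmd14 calls of both collagens were lost without siNonTarget replicate 1, siNonTarget replicate 2 or siPsmd14 replicate 1, with limma adjusted p between 0.0906 and 0.24. The Col4a1 call was also lost without siPsmd14 replicate 2 (limma adjusted p = 0.0611). Without any 1 of these 4 arrays the rise stayed between 1.04 and 1.28 for Col4a1 and between 1.61 and 1.79 for Col4a2. The difference between the 3' and 5' probe sets of Actb, a sign of RNA integrity, was 0.346 on the first siPsmd14 array and lay between 0.0962 and 0.214 elsewhere, and its part in these values was not tested. Without that array the rises were 1.20 for Col4a1 and 1.73 for Col4a2.

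Lama1 encodes the laminin alpha1 chain, the main alpha chain of early embryonic basement membranes. Its log2 value was 7.27 and 7.73 in siNonTarget, 4.75 and 4.37 in siSox2, 7.38 and 7.17 in siPsmd14, and with siDdb1 7.06 and 6.84. Both siSox2 arrays lay below all 6 others. The fall in siSox2 was -2.94 (SE 0.19, 7.67-fold lower, limma adjusted p = 0.000332). The siSox2 values lay below the medians of their arrays (4.77 and 4.81), so the lower end of this difference was read among dim probe sets. The siPsmd14 arrays overlapped the controls (difference -0.22, 95% interval -0.66 to 0.22). Both siDdb1 arrays lay below both controls, and the difference of -0.55 did not pass (SE 0.19, limma adjusted p = 0.49).

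Lama5 encodes the alpha5 chain, which is widespread in epithelial basement membranes. It read 9.12 and 8.99 in siNonTarget and 9.58 and 9.82 in siSox2. The siSox2 arrays lay above both controls, and the difference of 0.64 did not pass (SE 0.18, limma adjusted p = 0.108). Its other probe sets gave 0.62 and 0.59 in siSox2, neither past the threshold. In siPsmd14 (0.22) and siDdb1 (0.10) Lama5 did not pass.

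Lamb1 and Lamc1 encode the beta1 and gamma1 chains, which pair with either alpha chain. Lamb1 lay between 9.80 and 10.46 on all 8 arrays, and Lamc1 between 8.70 and 9.26. In siSox2, where Lama1 fell, the difference was 0.03 for Lamb1 (95% interval -0.31 to 0.37) and -0.21 for Lamc1 (95% interval -0.62 to 0.20). Neither interval reaches a change of 1 log2 unit. In siPsmd14 Lamb1 lay above both controls on both arrays, by 0.41 (SE 0.15), and did not pass (limma adjusted p = 0.242). Its other probe sets gave 0.54, -0.08 and -0.06 there. Lamc1 differed by 0.02 in siPsmd14, and neither chain passed in siDdb1 (0.19 for Lamb1 and -0.10 for Lamc1).

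**Figure D2:**
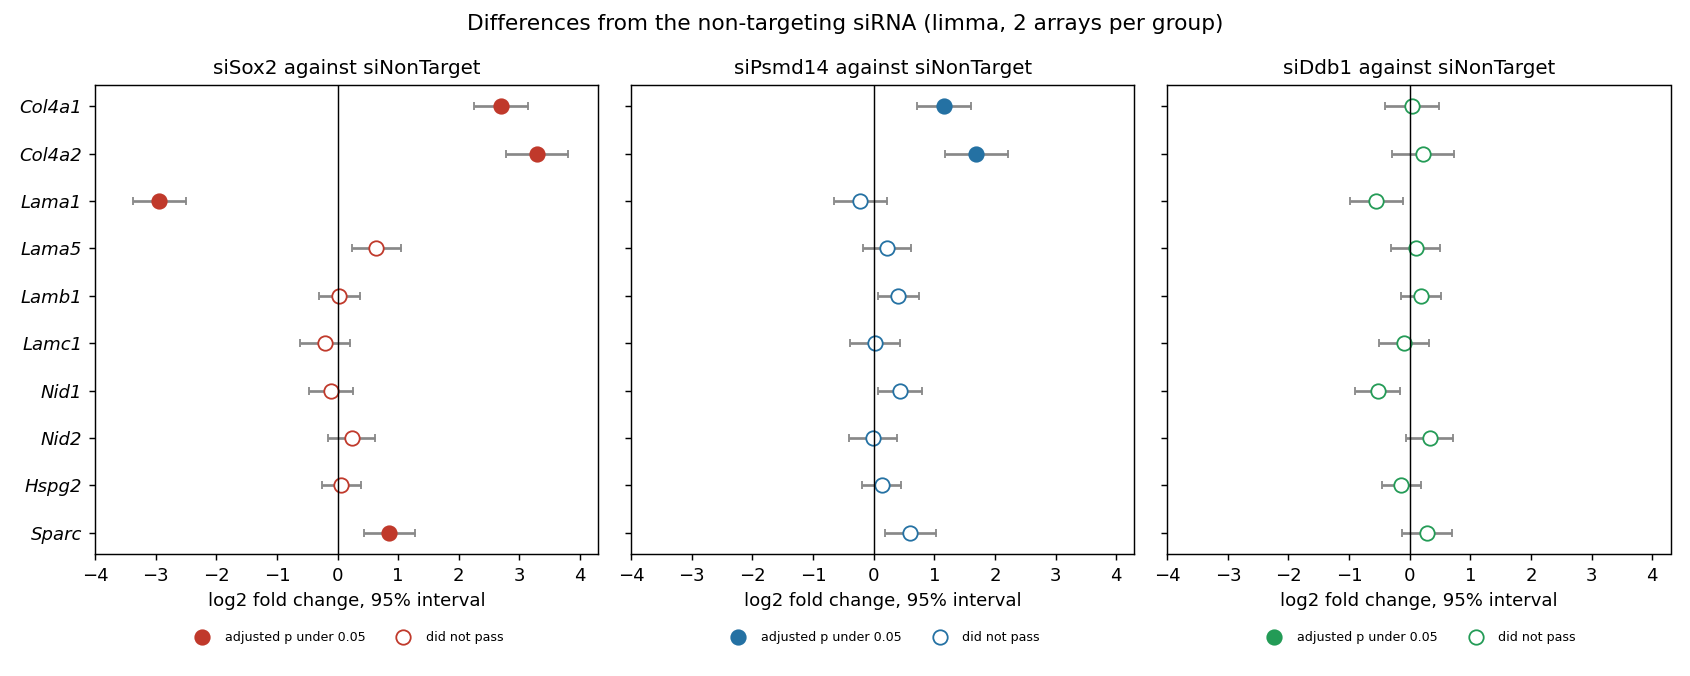
Log2 fold change of each gene against siNonTarget with its 95% interval from the limma model, for siSox2 (left), siPsmd14 (middle) and siDdb1 (right), with filled points past an adjusted p of 0.05. In siSox2 Col4a1 (2.70) and Col4a2 (3.28) lie far to the right and Lama1 (-2.94) far to the left, and no point is filled for siDdb1.

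Nid1 and Nid2 encode the nidogens, which bridge laminin and collagen IV. Nid1 read 9.69 and 9.78 in siNonTarget, 9.53 and 9.73 in siSox2, 10.02 and 10.33 in siPsmd14, and with siDdb1 9.06 and 9.36. The siPsmd14 arrays lay above and the siDdb1 arrays below all others. Neither difference from the control passed: 0.44 in siPsmd14 (SE 0.16, limma adjusted p = 0.249) and -0.53 in siDdb1 (SE 0.16, limma adjusted p = 0.41). Set against each other, siPsmd14 was higher than siDdb1 by 0.97 (SE 0.16, 1.96-fold, limma adjusted p = 0.0498). The other probe sets of Nid1 gave 0.52 and 0.30 for that difference, neither past the threshold. Without any 1 array of the 8 the Nid1 call was lost, with limma adjusted p between 0.0718 and 0.281.

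Nid2 lay between 9.90 and 10.59 on all 8 arrays and passed in no comparison, with differences from the control of 0.23 in siSox2, -0.02 in siPsmd14 and 0.33 in siDdb1. Hspg2 encodes perlecan, the main heparan sulfate proteoglycan of basement membranes. It lay between 8.15 and 8.60 and passed in no comparison, with differences of 0.06, 0.13 and -0.14. Its other probe set read 0.53 in siSox2 and 0.49 in siPsmd14, also without passing.

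Sparc encodes a collagen-binding protein that is abundant in parietal endoderm. It read 11.30 and 11.03 in siNonTarget, 11.79 and 12.25 in siSox2, 11.84 and 11.70 in siPsmd14, and with siDdb1 11.60 and 11.30. All siSox2 and siPsmd14 arrays lay above both controls. The rise in siSox2 was 0.85 (SE 0.19, 1.80-fold, limma adjusted p = 0.0477), close to the threshold. Its call held in 5 of 16 alternatives, over which the rise ran from 0.53 to 1.08. Without siNonTarget replicate 1, siNonTarget replicate 2 or siSox2 replicate 2 the rise was 0.98, 0.72 and 0.62, and none of these passed. Leaving out any siPsmd14 or siDdb1 array also ended the call, with limma adjusted p of 0.0612 and 0.0565. In siPsmd14 the difference was 0.60 and did not pass (limma adjusted p = 0.171). A further probe set gave 0.98 in siSox2 and 0.86 in siPsmd14, and another gave -0.25 and -0.04, none past the threshold.

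**Figure D3:**
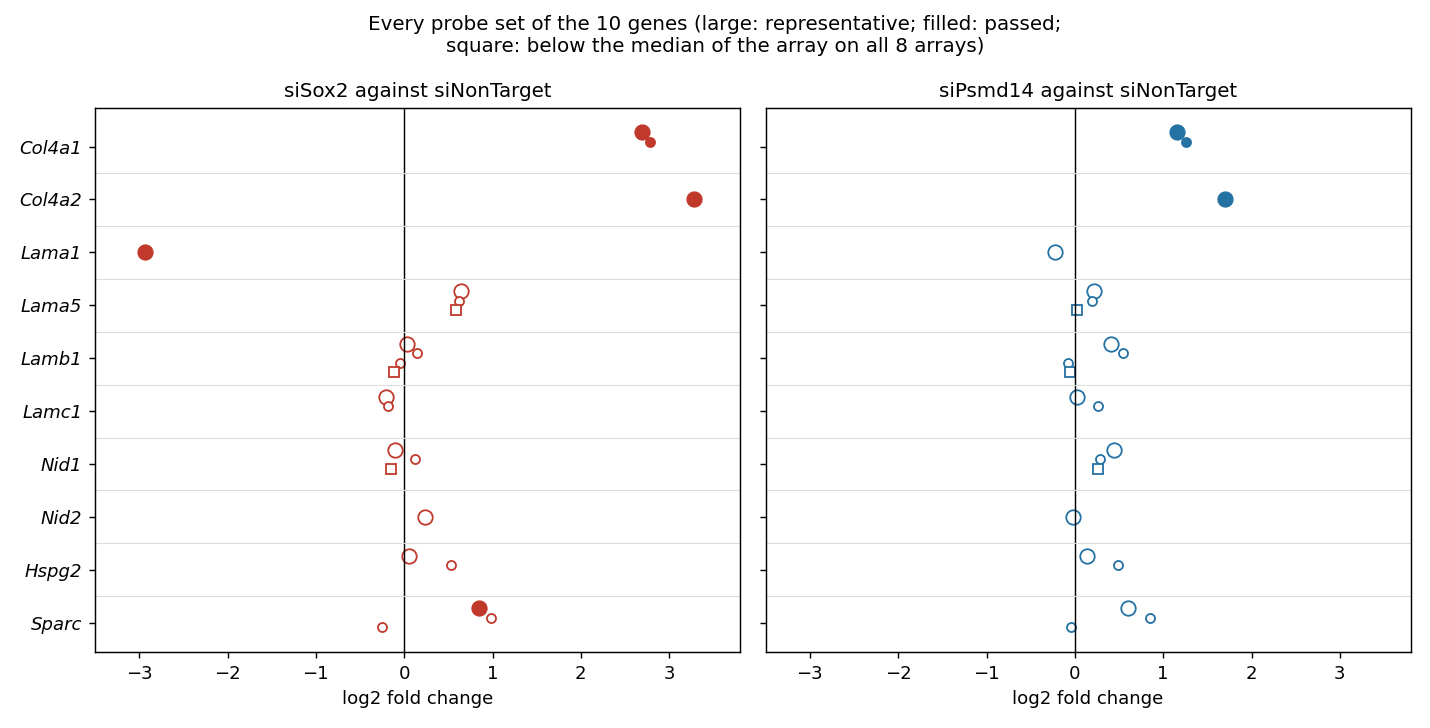
Log2 fold change of all 22 probe sets of the 10 genes in siSox2 (left) and siPsmd14 (right), with large symbols for the representative, filled symbols past an adjusted p of 0.05, and squares for probe sets below the array median on all 8 arrays. The Col4a1 probe sets lie together (2.70 and 2.78 in siSox2), while those of Sparc spread from -0.25 to 0.98.

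The knockdowns were set against each other to ask whether these changes differed in size. In siPsmd14 against siSox2, 1 of 10 genes was higher, where 1.98% of all genes were, and 2 were lower, where 2.05% were. Lama1 was higher in siPsmd14 by 2.72 (SE 0.19, limma adjusted p = 0.000393). Col4a1 was lower by -1.54 (SE 0.20, limma adjusted p = 0.00544) and Col4a2 by -1.59 (SE 0.23, limma adjusted p = 0.00912). The Col4a2 call was lost without siPsmd14 replicate 1 (-1.55, limma adjusted p = 0.0659) and with the compared arrays alone (limma adjusted p = 0.0617). The Col4a1 and Lama1 calls held under all 16 alternatives. By this test both collagens were lower in siPsmd14 than in siSox2, and the control arrays enter it only through the pooled spread.

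In siDdb1 against siSox2, 1 of 10 genes was higher, where 2.03% of all genes were, and 2 were lower, where 2.6% were. They were Lama1 (2.39), Col4a1 (-2.67) and Col4a2 (-3.06), with limma adjusted p of 0.000875, 0.000597 and 0.000597. The Lama5 probe set with the lowest signal (3.46 to 4.50 over the 8 arrays) was also lower in siDdb1, by -0.74 (limma adjusted p = 0.0354). The brighter Lama5 probe sets differed by -0.54 and -0.38 and did not pass.

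In siPsmd14 against siDdb1, 2 of 10 genes were higher, where 0.456% of all genes were, and 0 were lower, where 0.132% were. They were Nid1 and Col4a2 (1.48, SE 0.23, limma adjusted p = 0.0378), and Col4a1 differed by 1.13 without passing (limma adjusted p = 0.0593). For both collagens the order of group means was thus siSox2, siPsmd14, siDdb1 and siNonTarget. The last pair did not differ past the threshold for either gene. The Col4a2 call against siDdb1 was lost without any 1 array of siNonTarget, siPsmd14 or siDdb1, with limma adjusted p between 0.0543 and 0.229.

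Counts in the gene lists that follow are to be read against the shares over all genes. These were 2.81% higher and 1.46% lower in siSox2, and 1.7% higher and 0.187% lower in siPsmd14. A single called gene in so short a list says little about the list as a whole. Other laminin and collagen IV chains were mostly dim, and 7 of 10 lay below the array medians in siSox2 and in siPsmd14. In siSox2 the beta2 chain gene Lamb2 rose by 0.95 (SE 0.16, limma adjusted p = 0.0185), and none of the 10 fell. In siPsmd14 Lama3, the alpha3 chain of epithelial laminins, rose, and none fell. Lama3 read 4.62 and 4.64 in siNonTarget, 5.01 and 5.43 in siSox2, 7.22 and 6.88 in siPsmd14, and with siDdb1 5.38 and 5.24. Both siPsmd14 arrays lay above all others. The rise was 2.42 (SE 0.17, 5.37-fold, limma adjusted p = 0.00129), and it held under all 16 alternatives. Lama3 lay below the array medians in siNonTarget, so its fold is read against a dim signal, and its other probe set differed by 0.24 without passing (limma adjusted p = 0.588). Lama3 was also higher in siPsmd14 than in siSox2 (1.83, limma adjusted p = 0.00153). The collagen IV chains Col4a3, Col4a4, Col4a5 and Col4a6 lay below the array medians in every group.

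Of 19 other basement membrane components, 2 rose and 1 fell in siSox2 (list median 0.16, against -0.03 over all genes). Tinagl1, a laminin-binding glycoprotein, rose by 2.94 (7.65-fold) and Fras1, which anchors embryonic epithelia, by 1.54. Fras1 lay below the array medians in siNonTarget, and its other probe set differed by -0.16. The laminin-related guidance protein Ntn1 fell by 1.76, with -0.05 for its other probe set. In siPsmd14 2 rose and none fell: Tinagl1 by 2.61 (6.12-fold) and the integrin ligand Npnt by 1.61. Tinagl1 read 6.10 and 5.87 in siNonTarget, 8.21 and 9.64 in siSox2, and 8.79 and 8.42 in siPsmd14, with no overlap with the controls.

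Among 14 matrix receptors and their anchors, 1 rose in siSox2, the integrin-linked kinase gene Ilk (1.13, limma adjusted p = 0.0163). In siPsmd14 2 rose, the collagen receptor kinase gene Ddr1 (0.98, limma adjusted p = 0.0339) and the syndecan gene Sdc4 (1.02, limma adjusted p = 0.0444). None fell in either. Another probe set of the laminin receptor gene Dag1 rose in siSox2 (0.94, limma adjusted p = 0.0498), where the representative did not pass. The list medians were 0.39 in siSox2 and 0.13 in siPsmd14, against -0.03 and -0.01 over all genes.

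Of 19 genes for collagen folding, modification and secretion, 1 rose in each of these knockdowns and none fell. Serpinh1, the collagen-specific chaperone, rose by 1.72 in siSox2 (3.29-fold, limma adjusted p = 0.00473). Its difference in siPsmd14 was 0.81 and did not pass. Plod2, a lysyl hydroxylase, rose by 1.14 in siPsmd14 (2.21-fold, limma adjusted p = 0.0129) and differed by -0.13 in siSox2. Plod2 was higher in siPsmd14 than in siSox2 by 1.28 (limma adjusted p = 0.00426), while Serpinh1 did not differ past the threshold (-0.91, limma adjusted p = 0.0635). The list medians were -0.02 and 0.05.

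Among 11 matrix proteases and inhibitors, 3 rose in siSox2 and 3 in siPsmd14, and none fell. In siSox2 these were the inhibitor Timp2 (1.25), the plasminogen activator Plat (1.43) and the urokinase receptor Plaur (1.41). Plat lay below the array medians in siNonTarget, and its other probe set differed by 0.09 without passing. Other probe sets of Timp2 ran from -0.10 to 1.17, and those at 0.86 and 1.17 passed. The Plaur call was close to the threshold (limma adjusted p = 0.0498) and held in 8 of 16 alternatives. In siPsmd14 the genes that rose were the collagen IV-degrading protease Mmp9 (1.20), the procollagen protease Bmp1 (1.65) and Plaur (1.71). The list medians were 0.66 and 0.29. Of 13 genes of fibrillar and interstitial matrix, which fibroblasts make, Col5a2 rose in siSox2 (1.73) and the proteoglycan Vcan in siPsmd14 (1.08), and none fell. Col5a2 was higher by 1.10 without siSox2 replicate 2.

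In siDdb1, 0 of the 86 genes in these 6 lists passed limma's threshold, and 16 had an unadjusted p under 0.05, where 9.86% of all genes did. The smallest p values in each list belonged to Lama3 (0.68, limma adjusted p = 0.313), Npnt (1.12, adjusted p = 0.27), Sdc4 (1.10, adjusted p = 0.16), Plod2 (0.64, adjusted p = 0.271), Mmp2 (0.91, adjusted p = 0.172) and Vcan (0.56, adjusted p = 0.343).

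**Figure D4:**
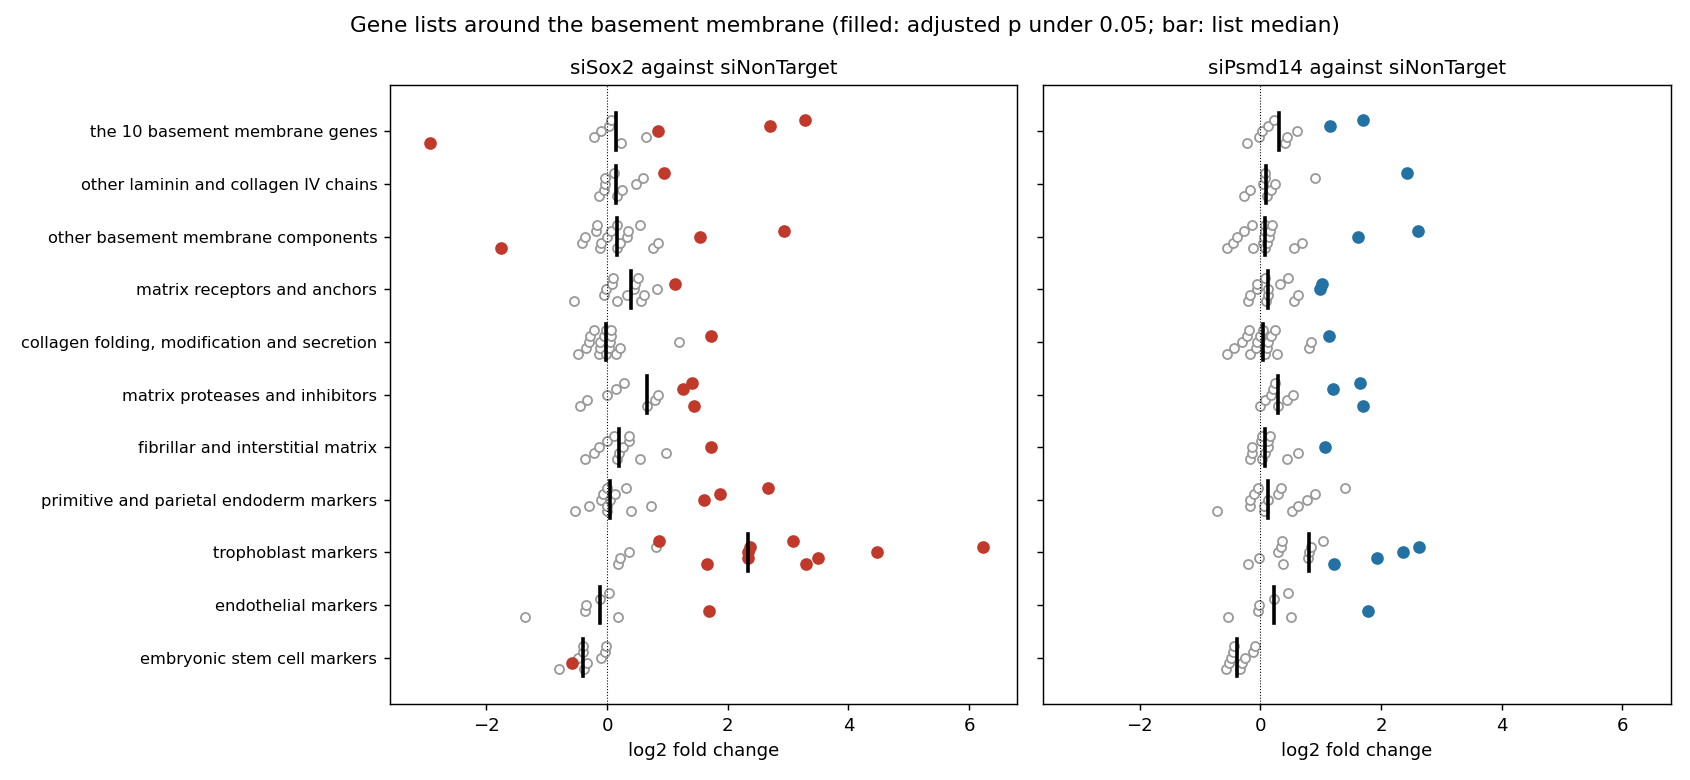
Log2 fold change against siNonTarget of every measured gene of the basement membrane lists and of the cell type marker lists, in siSox2 (left) and siPsmd14 (right), with filled points past an adjusted p of 0.05 and a bar at each list's median. The trophoblast markers have the highest medians (2.34 in siSox2 and 0.80 in siPsmd14), while the medians of the 6 matrix lists lie between -0.02 and 0.66.

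Leaving out 1 array ended many of the calls in these lists. Of 25 list genes past the threshold in siSox2, marker lists included, 17 stayed past it when siNonTarget replicate 1 was left out, 13 when siNonTarget replicate 2 was, and 16 when siSox2 replicate 2 was. Of 15 in siPsmd14, 1 stayed without siNonTarget replicate 1, without siNonTarget replicate 2 or without siPsmd14 replicate 1, namely Lama3. Ntn1 in siSox2 stayed past the threshold under all 16 alternatives, and Fras1 under the 15 that kept its probe set.

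Of the marker lists for other cell types, that of trophoblast held the most genes past the threshold. Of 14 trophoblast markers 10 rose in siSox2 and 4 in siPsmd14, where Krt7, Krt8, Krt18 and Plet1 passed. None fell, and 0 passed limma's threshold in siDdb1, with 5 at an unadjusted p under 0.05, where 9.86% of all genes were. The second probe set of Eomes also rose in siPsmd14 (0.99, limma adjusted p = 0.0306). Their summed intensity was 2956 to 3383 in siNonTarget, 16525 to 29625 in siSox2, 10494 to 12351 in siPsmd14 and 4129 to 4372 in siDdb1. The marker Elf5 lay below the array medians in every group, and Plac1 in siNonTarget and siDdb1. Plac1 read 4.58 and 4.08 in siNonTarget and 10.36 and 10.76 in siSox2. By these sums the groups stand in the order of the collagen IV values, which is not particular to trophoblast markers. The sums rest largely on the keratins Krt8 and Krt18 (means 9.83 and 9.52 in siNonTarget), which differed by 2.63 and 2.37 in siPsmd14. By gene, 11 of the 14 markers were higher in siPsmd14 than in siDdb1, and 3 (Ascl2, Cdx2 and Eomes) were lower. The part of trophoblast markers in the collagen IV values was not tested.

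Of 15 primitive and parietal endoderm markers, 3 rose in siSox2: the endocytic adaptor Dab2 (2.67, limma adjusted p = 0.00162), the forkhead factor Foxa2 (1.60, adjusted p = 0.00753) and the GATA factor Gata6 (1.87, adjusted p = 0.0403). The rise of Gata6 was 1.22 without siSox2 replicate 2 and did not pass, and its call held in 9 of 16 alternatives. Gata6 lay below the array medians in siNonTarget, and its other probe sets differed by 0.28 and 0.11 in siSox2 without passing. Another Dab2 probe set rose in siSox2 by 1.45 (limma adjusted p = 0.00848), and those at 0.74 and 0.21 did not pass. By representative probe sets, 0 passed limma's threshold in siPsmd14 and in siDdb1, where 4 and 4 had an unadjusted p under 0.05, against 17.1% and 9.86% of all genes. A dimmer probe set of the yolk sac endoderm gene Afp did rise in siPsmd14 (3.55, limma adjusted p = 0.0134), where the representative differed by 1.40 (limma adjusted p = 0.111). The summed intensity was 435 to 525 in siNonTarget, 761 to 959 in siSox2, 532 to 558 in siPsmd14 and 497 to 535 in siDdb1. By the lower and by the higher sum, the groups stand in the order of the collagen IV values here too. The siDdb1 range overlapped those of siNonTarget and siPsmd14. The defining factors Gata4, Sox17 and Sox7 lay below the array medians in every group.

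The summed intensity of 7 endothelial markers was 334 to 377 in siNonTarget, 289 to 353 in siSox2, 553 to 661 in siPsmd14 and 472 to 716 in siDdb1. Among them Cdh5 rose in siSox2 (1.69) and Tek in siPsmd14 (1.78), and Tie1, Emcn and Vwf lay below the array medians in every group. Cdh5 lay below the array medians in siNonTarget, and its other probe set differed by -0.12 in siSox2. Tek differed by 2.08 in siDdb1 and did not pass (limma adjusted p = 0.113). The fibroblast collagens Col1a1 and Col3a1 also lay below the array medians in every group. Summed over the 13 fibrillar and interstitial genes, intensity was 2925 to 3086 in siNonTarget, 2504 to 2727 in siSox2, 2961 to 3303 in siPsmd14 and 2865 to 3183 in siDdb1. This sum rests mostly on Fn1 (mean 11.24 in siNonTarget), which differed by -0.36 in siSox2 without passing. By gene, 9 of the 13 lay above 0 in siSox2 and 4 below, with a list median of 0.19. Among 10 embryonic stem cell markers, 1 fell in siSox2 (Esrrb, -0.58), and 0 passed limma's threshold in siPsmd14 and siDdb1. In these 2 knockdowns 6 and 2 had an unadjusted p under 0.05, against 17.1% and 9.86% of all genes. All 10 lay below 0 in siSox2 and in siPsmd14, and 9 did in siDdb1. The list medians were -0.39, -0.38 and -0.14, against -0.03, -0.01 and -0.01 over all genes. The Esrrb call (limma adjusted p = 0.0399) held in 8 of 16 alternatives. Another probe set of Klf4 fell in siSox2 (-0.77, limma adjusted p = 0.0443). Their summed intensity was 59084 to 64283 in siNonTarget, 50267 to 53422 in siSox2, 51007 to 52153 in siPsmd14 and 56634 to 56909 in siDdb1. The part of these cell types in the values of the basement membrane genes was not tested.

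Genes with the most similar pattern were ranked by Pearson's r of log2 values over the 8 arrays, among 626 genes that were brighter than the median gene and had an SD of at least 0.5, leaving out the 10 basement membrane genes themselves. Between Col4a1 and Col4a2 r was 0.99. The 8 points are 4 groups of 2, so r mostly reflects the group means and is given as a description. Outside the set, most like Col4a1 were the Src adaptor gene Afap1l2 (r = 0.99), the fatty acid elongase gene Elovl1 (0.99), the transcription factor Cebpb (0.99) and the ARID factor Arid3a (0.98). Afap1l2 differed by 2.86 in siSox2, 1.21 in siPsmd14 and 0.39 in siDdb1, and Cebpb by 2.30, 1.25 and 0.06. Most like Lama1 were Dpysl3 (r = 0.98), Dapp1 (0.98), Pcyt1b (0.97) and the co-receptor gene Nrp2 (0.97). Their differences in siSox2 ran from -2.43 to -1.56. For Lamb1, which itself did not pass, the closest were Ier3 (r = 0.88), Zfp352 (0.86), Bin1 (0.85) and Tmcc3 (0.85).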

How the data were processed

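Total RNA (5 ng) was amplified and biotin-labelled before hybridisation, per the labels' protocols. The deposited values are intensities on a linear scale made by the authors with RMA, a tool named in the submitters' processing notes. Its version and settings were not given in these sources. RMA usually brings arrays to a common distribution, so each change is one against most other probe sets. From the 45101 probe sets, 64 controls were left out. The annotation gave 34945 of the rest 1 symbol, 932 several and 9160 none. Log2 was taken with no pseudocount. All 8 arrays were fitted together with R 4.3.3 and limma 3.58.1 (lmFit and eBayes, prior 5.02 and total 9.02 degrees of freedom), without a replicate block, and 95% intervals use its SE. Summed marker intensities are on the linear scale.

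Members, lists and tests were chosen with earlier results of these data known. The members were always named. From each other list, the 3 or fewer called genes of lowest p were named per comparison with siNonTarget, or 1 or 2 where none passed, and marker lists are given by level. The script was tested on simulated data with 200 changed probe sets. Alternatives were median and quantile normalization, leaving out the dimmer 50% of probe sets, eBayes with trend and robust, the compared arrays alone, the replicate block, mean probe sets and leaving out each array.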

Additional observations from a re-analysis of the deposited data

How the results depend on the processing

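Over 16 alternatives, 898 of 960 member fold changes kept their direction and their side of the threshold. Of the rest, 39 no longer passed, 5 newly passed, and 18 changed sign, none of these past the threshold. For siPsmd14 against siDdb1 the count of members went from 2 to 3 with array medians subtracted, to 1 without the dimmer 50% of probe sets, to 0 with only the compared arrays, to 3 with trend and robust, and to 1 with averaged probe sets. Leaving out 1 array gave 0 to 2 there and 0 to 2 for siPsmd14 against siNonTarget, with 3 to 5 members at an unadjusted limma p under 0.05. Fewer arrays also leave fewer degrees of freedom.

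The replicate block gave 3 members for siSox2 against siNonTarget, since Sparc was lost (limma adjusted p = 0.0624), and changed no other member count. Labels give only shared numbers, with correlations of replicate deviations from -0.217 to 0.242. With siDdb1 numbers crossed, added after seeing the data, the counts were 3, 2 and 0 in siSox2, siPsmd14 and siDdb1.

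With quantile normalization Nid2 in siPsmd14 was 0.0035. Without 1 array, the values that changed sign had these ranges. In siSox2 against siNonTarget, Lamb1 ran from -0.1219 to 0.1818 and Hspg2 from -0.0106 to 0.1308. In siPsmd14 it was -0.4506 to 0.0074 for Lama1, -0.2099 to 0.25 for Lamc1 and -0.187 to 0.155 for Nid2. In siDdb1 it was -0.0876 to 0.1511 for Col4a1, -0.1456 to 0.3355 for Lama5, -0.2571 to 0.0629 for Lamc1 and -0.3009 to 0.0241 for Hspg2. Against siSox2, Lamc1 in siPsmd14 ran from -1e-04 to 0.4598 and Nid2 in siDdb1 from -0.0755 to 0.2638. In siPsmd14 against siDdb1, Lama5 ran from -0.1152 to 0.3659 and Lamc1 from -0.1128 to 0.3471. The cause was not tested. Probe sets below the array medians, such as Lama1 in siSox2, limit what can be read at the low end.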
